A study of Mus musculus with 6 samples.

Results

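Genes that move cholesterol and lipoprotein lipid into, through and out of cells were followed in mouse aorta by the reads of the circular RNA (circRNA) intervals assigned to them. The set was named as 9 genes: Apoe, Lpl, Angptl4, Abca1, Abcg1, Scarb1, Cd36, Soat1 and Elovl5. Every listed circRNA interval whose host symbol was among these was taken, which gave 18 of the 20532 listed intervals and 8 of the 7051 host symbols. Lpl had no interval under its symbol, and none of any symbol lay inside its RefSeq bounds on chromosome 8, 68880555 to 68906932. No statement on Lpl is therefore possible, and the absence of a listed interval does not show that the gene was silent.

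The 6 libraries hold total RNA of the aorta and carry the strain label C57BL/6 throughout. They form 3 groups with 2 libraries each: chow-fed C57BL/6J mice of wild-type genotype, chow-fed ApoE-/- mice, and ApoE-/- mice that changed to high-fat food when 3 months old and ate it for 3 months (called high-fat here). The ages of the chow groups, the sex of the mice, the Apoe allele and the number of animals behind a library are not stated in the labels. Deposited column headings in the library labelled ApoE-/- chow 1 carry a C57BL/6J sample name. Its label was kept, and no member passed without it.

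Lipoprotein particles carry cholesterol and triglyceride through blood. Apolipoprotein E is the ligand by which liver receptors clear remnant particles, so mice without it accumulate cholesterol and form plaques in the aorta. Lipoprotein lipase frees fatty acids from the particles, scavenger receptors take up particles and fatty acids, acyltransferases store cholesterol as esters, and ABC transporters pass it back out to apolipoprotein acceptors. Liver X receptors, which sense oxysterols, switch on both Abca1 and Abcg1 and also Apoe in macrophages.

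Each library came with whole-number counts. Junction reads cross the back-splice that closes a circRNA. Interval reads are all other reads assigned between its ends, so they hold linear and intronic RNA of that stretch and are no measure of the whole gene. Levels are given in RPM, the reads scaled by the library total. Library totals lay between 69130844 and 77352690 reads. Junction reads were far fewer, from 3706 in C57BL/6J 2 to 34805 in high-fat 1, and the 9 genes together contributed 120 of 110721 junction reads and 2136 of 8460859 interval reads. Whether replicates are different animals is not stated, and the p-values then reflect only the spread of these libraries, which may be technical.

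Promoter sequences are shown for Abca1 and Apoe, because their interval reads ran in opposite orders over the 3 groups. RefSeq (GRCm38.p6) gave a promoter for 5 of the 9 genes, from 250 bases before to 50 bases after the start site. Both genes lie on the minus strand, and the sequences read 5′ to 3′. Capitals mark matches on either strand. The short motifs were the GC box GGGCGG, the E-box CACGTG, the TATA box TATAAA and the nuclear receptor hexamer AGGTCA. A direct repeat of GGTCA, with 5 free bases between the copies, was searched too. The last motif was the same repeat with its upstream copy changed to GGTTA, a form bound by liver X receptors that was searched because such an element is known in Abca1.
Abca1, chr4:53159846-53160145: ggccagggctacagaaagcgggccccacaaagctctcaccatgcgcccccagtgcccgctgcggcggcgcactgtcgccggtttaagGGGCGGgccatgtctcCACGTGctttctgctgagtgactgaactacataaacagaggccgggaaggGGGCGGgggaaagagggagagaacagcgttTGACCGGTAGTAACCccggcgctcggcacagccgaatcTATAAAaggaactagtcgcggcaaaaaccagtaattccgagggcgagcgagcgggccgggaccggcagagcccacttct
Apoe, chr7:19699139-19699438: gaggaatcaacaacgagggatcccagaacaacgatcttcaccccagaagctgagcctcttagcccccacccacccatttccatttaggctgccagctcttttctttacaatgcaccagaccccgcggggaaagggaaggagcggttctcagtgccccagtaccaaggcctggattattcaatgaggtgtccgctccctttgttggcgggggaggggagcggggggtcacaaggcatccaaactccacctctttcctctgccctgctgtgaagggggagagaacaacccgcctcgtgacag
The Abca1 promoter held the liver X receptor form (on the reverse strand) at -67 from the start site, a form found in 16 of 32851 RefSeq promoters of this length (0.0487%). It also held GC boxes at -163 and -97 (35.7% of promoters have any), an E-box at -147 (7.15%) and a TATA box at -29 (13.6%). The Apoe promoter shown, for the most upstream of 3 listed start sites, held none of the 6 motifs, and the middle of the 3 held only TATAAA, at -100 and -96. AGGTCA was in 16.3% and the GGTCA repeat in 0.0761% of all promoters. A match describes letters only, and its absence says nothing of a factor.

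Apoe and Angptl4 interval reads were most abundant in wild-type aortae and least abundant in high-fat aortae, and those of Abca1 ran the other way. Elovl5 was nearly absent from high-fat libraries, but also from C57BL/6J 1. Abcg1 was low in high-fat libraries, but also in ApoE-/- chow 1, and both genes had few reads. Cd36 and Soat1 differed more between replicates than between groups, and so did Scarb1 within both ApoE-/- groups but not within the C57BL/6J pair. None of the 8 genes with reads passed in any of the 3 comparisons (edgeR's quasi-likelihood test with Benjamini-Hochberg adjustment over 6122 host genes, adjusted p from 0.999 to 1). Unadjusted p of the same test was under 0.05 for Apoe and Angptl4 for high-fat against C57BL/6J, where 3.46% of all host genes had it. Elovl5 also had it there and, alone, for high-fat against ApoE-/- chow (1.88%). Elovl5 reached the read minimum of the test only outside the high-fat group, so its p in these comparisons is no support. For ApoE-/- chow against C57BL/6J 0 members had it (2.58%), and DESeq2 called 0 members. The background was as low: 0% of host genes passed for high-fat against ApoE-/- chow, 0.0163% for high-fat against C57BL/6J and 0% for ApoE-/- chow against C57BL/6J.

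**Figure D1:**
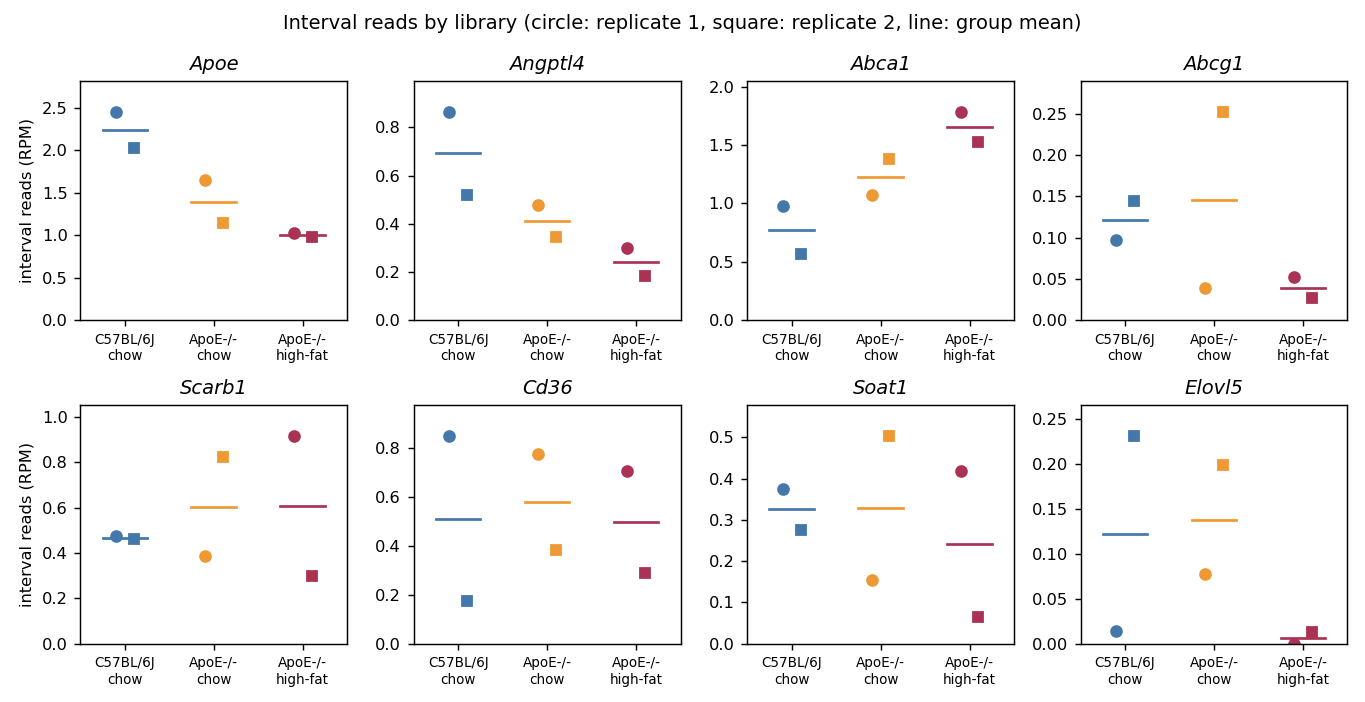
Interval reads in RPM (y axis, starting at 0, own scale per gene) of the 8 genes with a listed interval, for each of the 6 libraries by group (x axis). Points are single libraries and lines are group means; Apoe runs from 2.45 in C57BL/6J 1 to 0.979 in high-fat 2 and Abca1 from 0.564 in C57BL/6J 2 to 1.78 in high-fat 1.

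Apoe encodes the targeted apolipoprotein. Its only interval lies at chromosome 7, 19696367 to 19696437 (71 bp, GRCm38), inside the gene and 123 bp from its 3′ end. It held 176 and 140 interval reads in the wild-type pair (C57BL/6J), 128 and 86 in the ApoE-/- pair on chow and 78 and 75 in the high-fat pair. The groups did not overlap in any pair, yet all 4 ApoE-/- libraries retained Apoe reads. Host genes with such a gap in RPM were 6.55% (high-fat below C57BL/6J), 11.7% (high-fat below ApoE-/- chow) and 8.23% (ApoE-/- chow below C57BL/6J). How many had all of these gaps at once was not counted. In RPM the levels were 2.24 ± 0.301 in the wild-type pair, 1.40 ± 0.364 in the ApoE-/- pair on chow and 1.00 ± 0.0298 in the high-fat pair (SD, n = 2 each). On the log2 scale Apoe differed by -1.38 ± 0.48 SE between high-fat and C57BL/6J and by -0.87 ± 0.47 SE between ApoE-/- chow and C57BL/6J (edgeR, adjusted p from 0.999 to 1). The labels do not say which part of the gene the allele lacks, so reads of this short stretch do not check the genotype labels. The library labelled ApoE-/- chow 1, at 1.65 RPM, lay between C57BL/6J 2 (2.03) and ApoE-/- chow 2 (1.14), and without it the ApoE-/- chow against C57BL/6J value was -1.13. That value was -0.58 without C57BL/6J 1. A single junction read, in C57BL/6J 2, stands behind the circRNA itself. In whole-tissue RNA, fewer cells of a type and less RNA per cell cannot be told apart.

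Angptl4 encodes a secreted inhibitor of lipoprotein lipase that is switched on by fasting and by fatty acids. It has 2 intervals on chromosome 17, at 33775148 to 33775349 (202 bp) and 33779069 to 33779320 (252 bp). Together they held 62 and 36 interval reads in the wild-type pair, 37 and 26 in the ApoE-/- pair on chow and 23 and 14 in the high-fat pair. Group levels were 0.692 ± 0.242, 0.411 ± 0.0946 and 0.242 ± 0.0837 RPM in that order (SD, n = 2 each), with no overlap between any pair of groups in RPM. As given for Apoe, 6.55%, 11.7% and 8.23% of all host genes had the single gaps. The gap between C57BL/6J 2 (0.521) and ApoE-/- chow 1 (0.478) was smaller than the spread inside either group. High-fat differed from C57BL/6J by -1.78 ± 0.55 SE and from ApoE-/- chow by -0.83 ± 0.55 SE on the log2 scale (edgeR, adjusted p = 0.999 for the first and 1 for the second). The difference from C57BL/6J was -1.19 without C57BL/6J 1 and -2.22 without C57BL/6J 2.

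The 2 Angptl4 intervals did not vary alike. The 202 bp interval held 33, 11, 12, 5, 4 and 7 reads over the 6 libraries, in the order C57BL/6J 1 and 2, ApoE-/- chow 1 and 2, high-fat 1 and 2. The 252 bp interval held 29, 25, 25, 21, 19 and 7. C57BL/6J 1 stood out in the shorter interval alone, and high-fat 2 was lowest in the longer. The shorter interval took 53.2% of the gene's reads in C57BL/6J 1 (exact 95% interval 40.1 to 66.0%) and 17.4% in high-fat 1 (4.95 to 38.8%). The other replicates went against a group contrast, since the share was 30.6% in C57BL/6J 2, while high-fat 2 had 7 reads in each interval. ApoE-/- chow 1 and 2 stood at 32.4% and 19.2%. All 5 Angptl4 junction reads, 3 and 2, came from C57BL/6J 1.

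Abca1 encodes the transporter that loads cholesterol and phospholipid onto lipid-poor apolipoprotein A-I. All its interval reads came from an interval toward the 3′ end, at chromosome 4, 53038157 to 53046145 (7989 bp). That interval held 70 and 39 reads in the wild-type pair, 83 and 104 in the ApoE-/- pair on chow and 136 and 117 in the high-fat pair. Levels were 0.769 ± 0.290, 1.23 ± 0.216 and 1.65 ± 0.179 RPM (SD, n = 2 each). The groups did not overlap in RPM. Of all host genes, 22.1% were so for high-fat above C57BL/6J, 16.8% for high-fat above ApoE-/- chow and 19.1% for ApoE-/- chow above C57BL/6J. With TMM scaling, which sets libraries against each other by their typical gene, C57BL/6J 1 (1.19) lay between the ApoE-/- chow libraries (1.02 and 1.37). The high-fat against C57BL/6J difference was 0.85 ± 0.49 SE and the high-fat against ApoE-/- chow difference 0.38 ± 0.48 SE on the log2 scale (edgeR, adjusted p = 0.999 and 1). Both values stayed above 0 under every alternative tried, but their size rested on single libraries. The first was 1.48 without C57BL/6J 1 and 0.40 without C57BL/6J 2, and the second was 0.20 without ApoE-/- chow 1 and 0.61 without ApoE-/- chow 2.

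Abca1 was also the member with most junction reads, 83 of 120, and 234 of 7051 hosts had more. It was the only member with enough of them to test. A cluster of 5 overlapping circRNAs toward the 5′ end held 82 of the 83. They are built from few ends: 3 share the coordinate 53107006, 2 share 53127597, 2 share 53133015 and 2 share 53144095. The 5419 bp circRNA (53127597 to 53133015) had 36 junction reads and the 2280 bp circRNA (53107006 to 53109285) had 34. The 26010, 37090 and 16499 bp forms, which join the same ends over longer distances, had 7, 2 and 3.

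**Figure D2:**
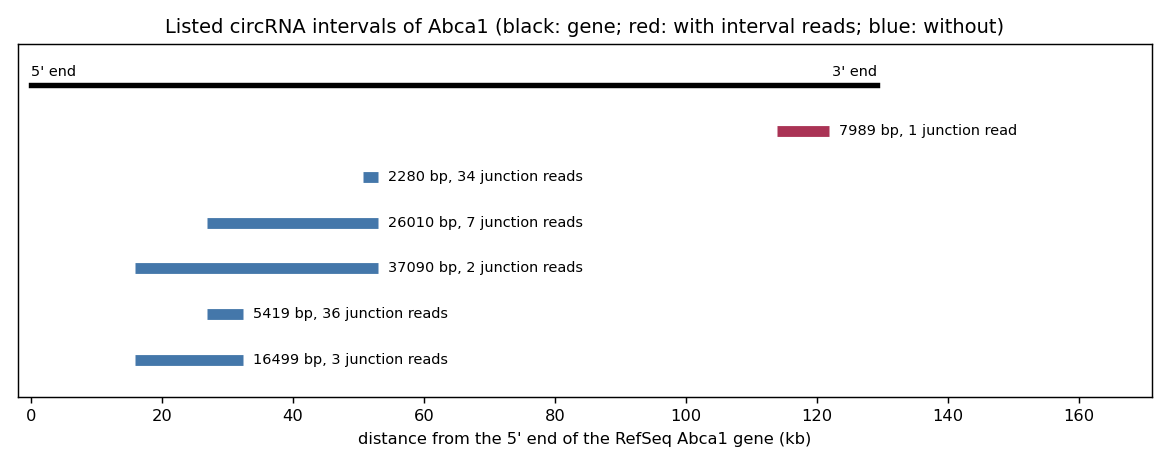
The 6 listed circRNA intervals of Abca1, drawn to scale as distance in kb from the 5′ end of the RefSeq gene (x axis). The 5 blue intervals, without interval reads, overlap toward the 5′ end and share ends; the red 7989 bp interval lies toward the 3′ end and holds all 549 interval reads and 1 junction read.

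None of the 5 had an interval read in any library. No base of the 5 is free of another listed interval, and whether reads under several intervals were left out of the counts was not tested. The 2280 bp circRNA had 5 and 0 junction reads in the wild-type pair, 4 and 5 in the ApoE-/- pair on chow and 13 and 7 in the high-fat pair. The 5419 bp circRNA had 3 and 0, 8 and 0, and 21 and 4 in the same order. High-fat 1 was the highest library for both, and it also had the most junction reads of any library.

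**Figure D3:**
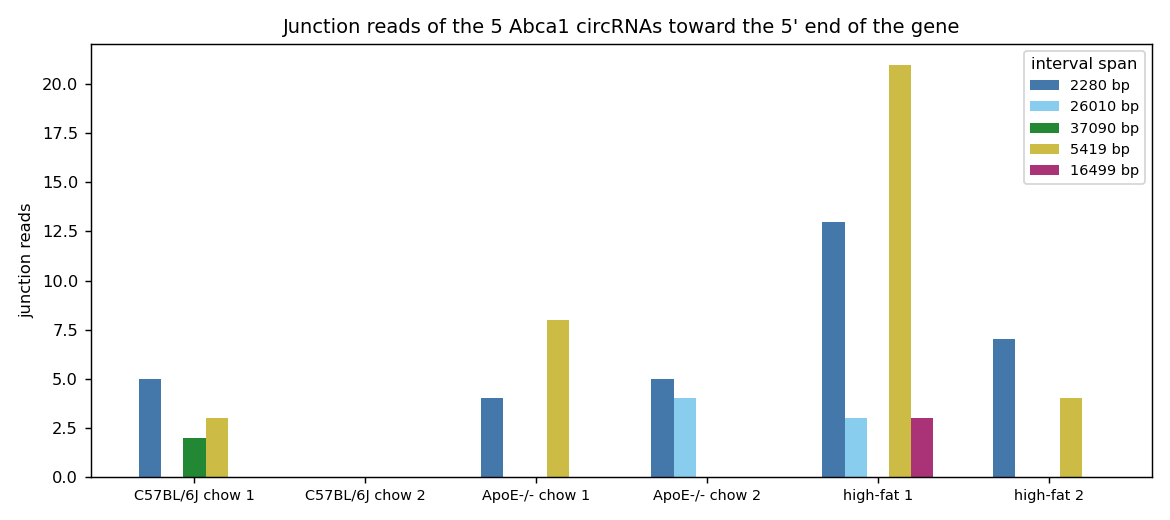
Junction reads (y axis) of the 5 Abca1 circRNAs toward the 5′ end of the gene in each of the 6 libraries (x axis), coloured by the span of the interval. High-fat 1 holds 21 reads of the 5419 bp and 13 of the 2280 bp circRNA, and C57BL/6J 2 holds none.

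Set against each library's junction total, Abca1 had 37.6 per 100000 junction reads in C57BL/6J 1 (exact 95% interval 18.0 to 69.1), 82.3 (42.5 to 144) and 62.0 (28.3 to 118) in ApoE-/- chow 1 and 2, and 115 (82.1 to 156) and 72.7 (37.6 to 127) in high-fat 1 and 2. C57BL/6J 2 had 0 of 3706, with an exact 95% interval of 0 to 99.5 per 100000 and a floor of 3 counts at 80.9 per 100000. The intervals cover counting error only. Among the 5 libraries with reads, high-fat 1 and C57BL/6J 1 had separate intervals, and all other pairs overlapped. Summed junction reads of Abca1 differed by 0.43 ± 1.20 SE for high-fat against ApoE-/- chow, 1.89 ± 1.31 SE for high-fat against C57BL/6J and 1.45 ± 1.32 SE for ApoE-/- chow against C57BL/6J (log2; edgeR over 1262 host genes, adjusted p from 0.999 to 1). The share of hosts that passed was 0.0792%, 0% and 0% in these comparisons. Without C57BL/6J 1 the comparisons with wild type rest on a library with 0 reads, so no value is given.

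Abcg1 encodes the transporter that passes cholesterol to mature high-density lipoprotein. Its interval at chromosome 17, 31113699 to 31113914 (216 bp) had 7 and 10 reads in the wild-type pair, 3 and 19 in the ApoE-/- pair on chow and 4 and 2 in the high-fat pair. Both high-fat libraries were below both C57BL/6J libraries, while the ApoE-/- chow libraries lay on either side of the C57BL/6J pair, the lower of them between the high-fat libraries in RPM. Abcg1 reached the read minimum of the test only outside the high-fat group, and pooling hides the spread between replicates. A pooled ratio is therefore a description only and no support for a group difference. Pooled over the group, the high-fat rate was 0.325 of the C57BL/6J rate (exact 95% interval 0.105 to 0.865 for counting error only), and the difference did not pass (log2 -1.80 ± 1.19 SE; edgeR, adjusted p = 0.999). Its 1 junction read came from high-fat 1.

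Scarb1 encodes the scavenger receptor that takes cholesterol from high-density lipoprotein. Interval reads at chromosome 5, 125283899 to 125289755 (5857 bp) numbered 19 and 16 in the wild-type pair, 18 and 31 in the ApoE-/- pair on chow and 45 and 12 in the high-fat pair. At 125297226 to 125298728 (1503 bp) they numbered 15 and 16, 12 and 31, and 25 and 11. The C57BL/6J libraries were alike in both intervals, while ApoE-/- chow 2 and high-fat 1 were high in both. Summed levels were 0.468 ± 0.00749, 0.605 ± 0.307 and 0.609 ± 0.436 RPM (SD, n = 2 each), and the high-fat difference from C57BL/6J was 0.09 ± 0.53 SE on the log2 scale (edgeR, adjusted p = 0.999), -0.08 without C57BL/6J 2 and -0.66 without high-fat 1. Of 9 Scarb1 junction reads, 6 came from high-fat 1 and 3 from C57BL/6J 1, among them the single read of a nested 834 bp circRNA (125283899 to 125284732). That circRNA lies wholly inside the 5857 bp interval and had no interval read in any library.

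Cd36 encodes a scavenger receptor for oxidised lipoprotein and long-chain fatty acids, expressed by macrophages, endothelium and adipocytes. Its intervals on chromosome 5 overlap, at 17795579 to 17798298 (2720 bp) and 17796996 to 17811227 (14232 bp). The 2720 bp interval had 37 and 9 reads in the wild-type pair, 35 and 4 in the ApoE-/- pair on chow and 33 and 4 in the high-fat pair. The 14232 bp interval had 24 and 3, 25 and 25, and 21 and 18. Replicate 1 of each group was higher than replicate 2 in the first interval, whatever the group. Group levels summed to 0.512 ± 0.478, 0.580 ± 0.277 and 0.497 ± 0.297 RPM (SD, n = 2 each). The high-fat difference from C57BL/6J was -0.40 ± 0.64 SE on the log2 scale (edgeR, adjusted p = 0.999), with values of 1.39 without C57BL/6J 1 and -1.19 without C57BL/6J 2.

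Adipocyte markers, taken as a sum, varied in the same libraries. The listed genes of an adipocyte list (12 of 18, led by Pck1, Plin4 and Cidea) summed to 37.6, 33.6 and 31.8 RPM in replicate 1 of C57BL/6J, ApoE-/- chow and high-fat, and to 12.4, 17.8 and 18.0 RPM in replicate 2. Some went the other way in a group. In C57BL/6J 1 and 2 Pparg stood at 0.334 and 0.680 RPM and Aqp7 at 0 and 0.0723. In ApoE-/- chow 1 and 2 Ucp1 stood at 2.09 and 2.16. The other listed genes were higher in replicate 1 of every group. Adipoq, Lep, Retn and Cfd had no listed interval, so the defining adipokines could not be read. Cd36 was higher in the 3 libraries with the higher adipocyte sums (0.707 to 0.849 RPM against 0.174 to 0.384). The part of fat tissue in the Cd36 values was not tested.

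**Figure D4:**
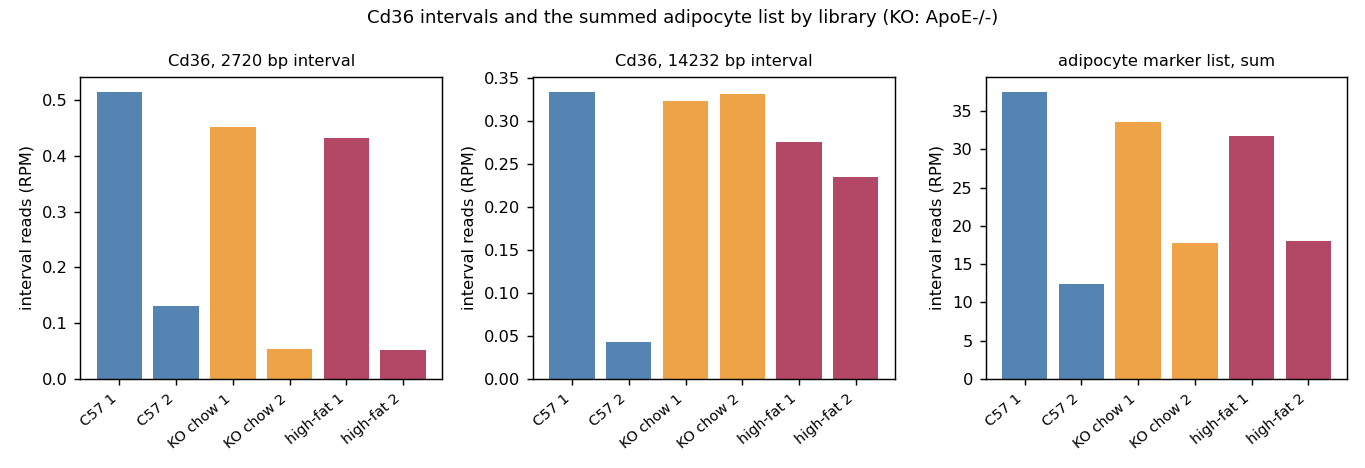
Interval reads in RPM (y axes, from 0) of both Cd36 intervals and of the summed adipocyte list in the 6 libraries (x axis; C57, C57BL/6J chow; KO chow, ApoE-/- chow). The 2720 bp interval and the adipocyte sum are higher in replicate 1 of every group, while the 14232 bp interval is low in C57BL/6J 2 alone.

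Other marker lists differed between libraries too. Macrophage genes with a listed interval (7 of 20; Cd68, Adgre1, Csf1r and Lyz2 had none) summed to 9.01 and 14.8 RPM in the wild-type pair, 13.3 and 15.6 in the ApoE-/- pair on chow and 22.1 and 18.2 in the high-fat pair. The list did not move as a whole. Itgax, an integrin of myeloid cells with the most reads of the list, stood at 8.83 ± 4.47, 9.69 ± 0.170 and 8.25 ± 2.06 RPM in that order (SD, n = 2 each). Lyz1, a lysozyme whose reads may be shared with its close relative Lyz2, stood at 1.60 ± 0.549, 2.52 ± 0.525 and 7.08 ± 0.320. Gpnmb, a lysosomal glycoprotein, stood at 0.371 ± 0.150, 1.05 ± 0.666 and 3.76 ± 0.0755, and was the 1 host gene of 6122 to pass for high-fat against C57BL/6J (log2 3.18; edgeR, adjusted p = 0.0415). With the replicate block or the 4 libraries compared alone, 0 host genes passed there. Smooth muscle genes, which mark the labelled tissue, were present in all libraries. They summed to 196 and 50.7 RPM in the wild-type pair, 172 and 130 in the ApoE-/- pair on chow and 152 and 198 in the high-fat pair. C57BL/6J 2 was also lowest for the fibroblast (17.1 RPM), adipocyte (12.4) and endothelial (5.05) lists. For striated muscle C57BL/6J 2 was highest (32.8, next 31.3 in ApoE-/- chow 2). Interval reads made up 1.12% of its library total, against 1.51 to 2.30% in the other libraries. Endothelial genes lay between 5.05 and 8.79 RPM, fibroblast genes between 17.1 and 42.6 and striated muscle genes between 18.1 and 32.8. The part of any cell type in the lipid gene values was not tested.

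Soat1 encodes the acyltransferase that esterifies cholesterol for storage in foam cell droplets. Its intervals on chromosome 1 are at 156429552 to 156429774 (223 bp) and 156446541 to 156458004 (11464 bp). Summed interval reads were 27 and 19 in the wild-type pair, 12 and 38 in the ApoE-/- pair on chow and 32 and 5 in the high-fat pair. ApoE-/- chow 2 and high-fat 1 were high and high-fat 2 low, so the groups overlapped in every comparison. The high-fat difference from ApoE-/- chow was -0.60 ± 0.73 SE on the log2 scale (edgeR, adjusted p = 1), 0.52 without ApoE-/- chow 2, 0.11 without high-fat 2, -1.22 without ApoE-/- chow 1 and -2.16 without high-fat 1. Soat1 had 3 junction reads in all.

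Elovl5 encodes an elongase of polyunsaturated fatty acids. Its interval at chromosome 9, 77961192 to 77961479 (288 bp) had 1 and 16 reads in the wild-type pair, 6 and 15 in the ApoE-/- pair on chow and 0 and 1 in the high-fat pair. High-fat libraries were below both ApoE-/- chow libraries, while C57BL/6J 1, with 1 read, was near the high-fat level. Elovl5 reached the read minimum of the test only outside the high-fat group, and pooling hides the spread between replicates. Pooled ratios are therefore a description only and no support for a group difference. The pooled high-fat rate was 0.0476 of the ApoE-/- chow rate (exact 95% interval 0.00115 to 0.296, counting error only) and 0.0542 of the C57BL/6J rate (0.00130 to 0.346). Neither difference passed (log2 -4.11 ± 1.64 SE and -3.98 ± 1.65 SE, values that depend on the handling of counts near 0; edgeR, adjusted p = 1 and 0.999). They were -3.10 and -3.02 without high-fat 1, and -6.37 and -6.29 without high-fat 2, which leaves a high-fat library with 0 reads. Without C57BL/6J 1 the difference from C57BL/6J was -4.88. The 2 junction reads of Elovl5 were in C57BL/6J 2.

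**Figure D5:**
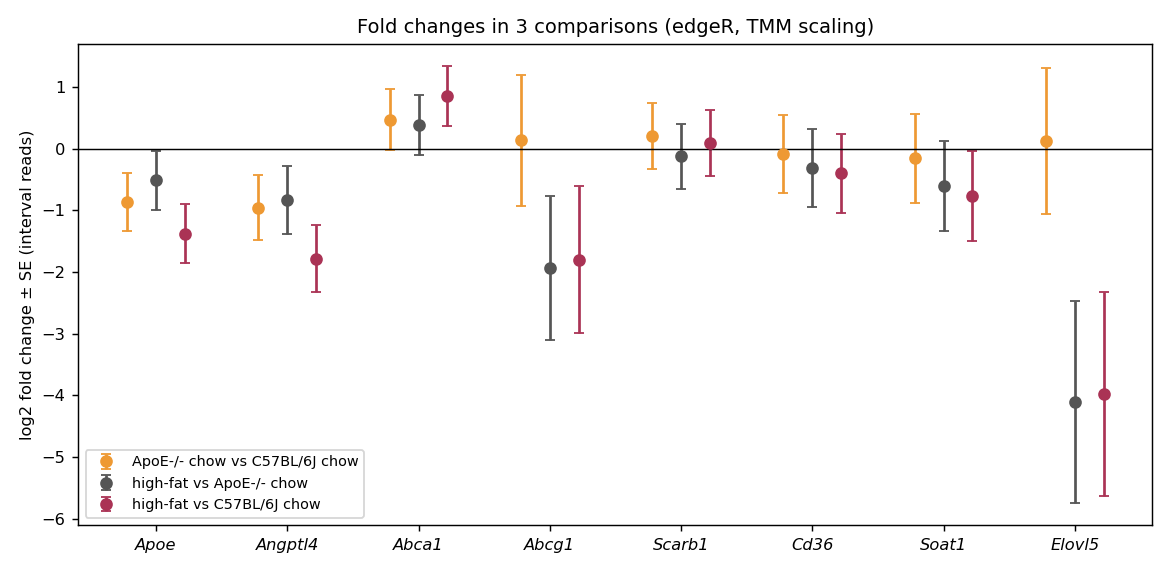
Fitted log2 fold changes of interval reads (y axis; points with standard error bars) of the 8 genes (x axis) in the 3 comparisons, which share libraries with each other. High-fat against C57BL/6J runs from -3.98 for Elovl5 to 0.85 for Abca1, and none of the points passed the test.

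Abcg1 and Elovl5 reached the read minimum of the test in C57BL/6J 2 and ApoE-/- chow 2 and in no high-fat library, so they could enter only by being high outside the high-fat group. No count or median over the set is therefore given for the direction of the fitted values. Scaling by library totals in place of TMM moved the median of all 6122 host genes to 0.18 for high-fat against C57BL/6J, 0.05 for high-fat against ApoE-/- chow and 0.16 for ApoE-/- chow against C57BL/6J (log2). The comparisons share libraries, so they are not separate evidence.

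Groups that did not overlap were counted against the same count over all host genes. High-fat libraries were both below both C57BL/6J libraries for Apoe and Angptl4, where 14.7% of host genes were so with TMM scaling and 6.55% in RPM. Abcg1 and Elovl5 were so too, Elovl5 by less than the worth of 1 read. Both could enter only by being high outside the high-fat group, so they are not counted. High-fat libraries were both above both C57BL/6J libraries for Abca1 (13.9% and 22.1%). Against ApoE-/- chow they were lower for Apoe and Angptl4 (17.2% and 11.7%) and higher for Abca1 (14.9% and 16.8%). Elovl5 was lower there too, under the same limit. ApoE-/- chow was below C57BL/6J for Apoe and Angptl4 (12.4% and 8.23%), and above it for Abca1 in RPM (19.1%) but for no member with TMM scaling (13.2%). The members were chosen with earlier results known, so these counts describe the set and support no claim that it stands apart.

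Per length of listed interval that no other interval covers, Apoe stood at 21.8 ± 8.50 RPM per kb over the 6 libraries (SD, n = 6), Angptl4 at 0.988 ± 0.522, Abcg1 at 0.472 ± 0.396, Elovl5 at 0.309 ± 0.353 and Abca1 at 0.152 ± 0.0545. Scarb1 (0.0859 ± 0.0381), Cd36 (0.0369 ± 0.0197) and Soat1 (0.0256 ± 0.0142) followed. The range of Apoe (13.8 to 34.5) lay above that of Angptl4 (0.403 to 1.90). From Angptl4 down, the ranges of all neighbours in this order overlapped. The Apoe interval is very short and reads of linear RNA count in every interval, so the order is that of these stretches and not of the genes' transcripts.

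Genes with the most similar interval profile were sought for the 4 members with most reads. The search covered 3328 host genes at a mean of at least 20 CPM. CPM here is the TMM-scaled RPM, which rests on library totals, multiplied by a constant shared by all libraries. Likeness was Pearson's r of log2(CPM + 1) over the 6 libraries, with the CPM scaled by TMM, so it does not follow the RPM values. Apoe was most like Ctps (0.951) and Angptl4 (0.946), and Abca1 most like Ccdc13 (0.999) and Sec61a1 (0.985). Scarb1 was most like the transcript listed as fantom3_C920029C09 (0.978) and Stx2 (0.944), and Cd36 most like fantom3_D030018K05 (0.992) and Fads1 (0.991), a fatty acid desaturase. These are the highest values of a search over all 3328 genes in libraries that share depth and tissue makeup, and are given as a description only.

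The wider pathway was read from 7 lists with 73 genes, of which 41 had a listed interval and 39 could be tested. None of the 39 passed in any comparison (edgeR; unadjusted p under 0.05 for 0, 4 and 1 of them in the order high-fat against ApoE-/- chow, high-fat against C57BL/6J, ApoE-/- chow against C57BL/6J). For high-fat against ApoE-/- chow 24 were above 0 and 15 below (median log2 0.19), and for the other comparisons 18 were above and 21 below. Pathway genes with an unadjusted p under 0.05 for high-fat against C57BL/6J (edgeR), where 212 of all 6122 host genes had it, included Abca7, Nr1h3 (liver X receptor alpha) and Apod, an apolipoprotein, named after their values were seen.

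Genes of cholesterol efflux and its control were split for high-fat against C57BL/6J, 3 above 0 and 3 below, where 48.0% of all host genes were above 0. Npc2, a lysosomal cholesterol carrier, stood at 1.11 ± 0.181 RPM in the wild-type pair, 0.784 ± 0.153 in the ApoE-/- pair on chow and 0.870 ± 0.362 in the high-fat pair, and Cyp27a1, a sterol hydroxylase, at 0.898 ± 0.265, 0.761 ± 0.180 and 0.582 ± 0.119 (SD, n = 2 each). Lipoprotein receptors were above 0 for 4 of 5. Lrp1, a large endocytic receptor of Apoe-bearing particles, stood at 6.84 ± 2.91, 10.1 ± 0.160 and 14.3 ± 5.23 RPM, and Sorl1, a sorting receptor, at 2.89 ± 1.12, 3.19 ± 0.0272 and 3.87 ± 0.147. The only tested apolipoprotein of the lists, Apod, stood at 0.0429 ± 0.0212, 0.196 ± 0.0336 and 0.203 ± 0.0466 RPM, with both ApoE-/- groups alike (log2 2.01 for high-fat and 2.02 for chow against C57BL/6J; edgeR, adjusted p = 0.999 and 1).

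Lipases and partners were above 0 for 4 of 6 in the same comparison, with Lipe, hormone-sensitive lipase, at 2.19 ± 2.13, 2.66 ± 0.916 and 2.05 ± 0.855 RPM and Angptl2, a secreted relative of Angptl4, at 0.891 ± 0.197, 0.922 ± 0.0856 and 1.23 ± 0.446. Sterol synthesis and its SREBP control were above 0 for 3 of 7 against C57BL/6J and for 6 of 7 against ApoE-/- chow. Hmgcs1, an early enzyme of the pathway, stood at 1.14 ± 0.120, 0.913 ± 0.317 and 1.29 ± 0.154 RPM and Srebf1, a lipogenic transcription factor, at 0.558 ± 0.176, 0.750 ± 0.329 and 1.08 ± 0.233. Fatty acid genes were above 0 for 2 of 9 against C57BL/6J, with the desaturase Scd1 at 13.3 ± 4.06, 19.6 ± 9.38 and 16.2 ± 6.66 RPM and fatty acid synthase, Fasn, at 7.44 ± 4.05, 9.38 ± 3.00 and 8.08 ± 2.25. Lipid-sensing receptor and droplet genes were above 0 for 1 of 5, with the droplet proteins Plin4 at 3.17 ± 2.57, 3.65 ± 1.38 and 3.53 ± 0.895 RPM and Cidec at 1.80 ± 0.975, 2.84 ± 1.21 and 2.75 ± 1.70. For Npc2, Sorl1, Lipe, Angptl2, Scd1, Fasn, Plin4 and Cidec the largest SD within a group exceeded the gap between the highest and lowest group mean, and 8 of the 18 adipocyte markers also belong to these lists.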

How the data were processed

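Each library had a deposited table that lists a circRNA interval, a host symbol, a count, an RPM value and a junction value, per the file headers. The deposited counts are whole numbers; the authors' RPM is the count scaled by the library's reads, so the library total follows from both. Coordinates are on GRCm38 (mm10), and TopHat and HTSeq are named, without versions, per the submitters' processing notes. A name for the back-splice caller was not given in the sources used here. Tables list only intervals with at least 1 read; an unlisted interval was taken as 0.

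Interval reads (count minus junction) and junction reads were summed per host symbol, leaving out 2133 intervals without a symbol. They were tested with edgeR 4.0.16 (R 4.3.3; quasi-likelihood, robust, TMM on library totals) over all 6 libraries, with 3 residual degrees of freedom. Host genes needed 10 interval or 5 junction reads in 2 libraries, which 8 members and 1 member met. P-values were Benjamini-Hochberg adjusted (threshold 0.05). SE is the log2 change divided by the root of F. DESeq2 1.42.0 was an alternative. No strand setting is given, so antisense reads cannot be separated.

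Members, lists and tests were chosen with earlier results of these data known. Named were all members, the 2 highest genes per pathway list and the 2 genes most alike for 4 members. Exon positions and circRNA sequences were not analysed here. A gene of the pathway lists is counted but not reported by name here.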

Additional observations from a re-analysis of the deposited data

How the results depend on the processing

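No member passed in any fit that could include it, with another scaling, test, read minimum, library set, the count column, the replicate block or a library left out (edgeR or DESeq2). Junction fits include only Abca1, except without a read minimum. Of 353 alternative member values, 331 kept their direction and 22 reversed, all of them for Abcg1, Scarb1, Cd36, Soat1 or Elovl5. Library totals gave 0.0098 for Scarb1 (high-fat against ApoE-/- chow), 0.015 for Soat1 and 0.18 for Cd36 (both ApoE-/- chow against C57BL/6J). In the last comparison the replicate block gave -0.082 for Abcg1 and 0.17 for Cd36, and the count column -0.065 for Elovl5. With libraries left out, the ranges for high-fat against ApoE-/- chow were -2.16 to 0.52 (Soat1), -0.85 to 0.55 (Scarb1) and -0.83 to 0.24 (Cd36). For high-fat against C57BL/6J they were -0.66 to 0.56 (Scarb1) and -1.19 to 1.39 (Cd36). For ApoE-/- chow against C57BL/6J they were -0.013 to 0.92 (Abcg1), -0.76 to 0.63 (Elovl5), -1.28 to 0.46 (Soat1), -0.47 to 0.66 (Scarb1) and -0.87 to 1.69 (Cd36). 

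Counts over all host genes moved more. By interval reads, 0 passed for high-fat against ApoE-/- chow, but 2 with library totals, 2 with DESeq2, 4 with the 4 libraries alone and 0 to 5 with a library left out. For high-fat against C57BL/6J 1 passed, but 3 with library totals, 2 with DESeq2, 0 with the 4 libraries alone, the replicate block or the count column, and 0 to 175 with a library left out. For ApoE-/- chow against C57BL/6J it was 0, and 0 to 72 with a library left out; 175 and 72 are without C57BL/6J 1. By junction reads, 1 passed for high-fat against ApoE-/- chow, but 0 with library totals, DESeq2, either other read minimum, the 4 libraries alone or the replicate block, and 0 to 1 with a library left out. For high-fat against C57BL/6J 0 passed, but 1 with DESeq2 size factors and 0 to 5 with a library left out, and for ApoE-/- chow against C57BL/6J 0, and 0 to 1. The cause was not tested. Abcg1 and Elovl5 missed the read minimum and had no value without C57BL/6J 2, without ApoE-/- chow 2, at the doubled minimum, or in the high-fat comparisons with the 4 libraries alone. A fit that leaves a group with 1 library assumes that it varies like the others.

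Replicates share numbers in the labels but no stated animal or batch. Deviations of same-numbered libraries correlated at 0.253, -0.317 and -0.0543 between groups by interval reads. With 2 libraries a group, these values cannot decide whether the numbers pair the samples. Replicate 1 was above replicate 2 in every group for the 2720 bp Cd36 interval and for the adipocyte sum. The replicate block called 0 host genes in every comparison. Outside Abca1 no member had more than 16 junction reads, too few to compare groups.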

Other observations

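The Cd36 intervals were split differently between libraries. They overlap, and 1417 bp of the 2720 bp interval and 12929 bp of the 14232 bp interval lie under no other listed interval. Whether reads under both were left out of the counts was not tested. The 2720 bp interval took 60.7% of Cd36 interval reads in C57BL/6J 1 (exact 95% interval 47.3 to 72.9%), 58.3% in ApoE-/- chow 1 (44.9 to 70.9%) and 61.1% in high-fat 1 (46.9 to 74.1%). It took 13.8% in ApoE-/- chow 2 (3.89 to 31.7%) and 18.2% in high-fat 2 (5.19 to 40.3%), and 75.0% of 12 reads in C57BL/6J 2 (42.8 to 94.5%). The intervals cover counting error only.

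Cd36 junction reads were almost all in a single library: 15 of 16 were in high-fat 1, 7 and 8 for the overlapping circRNAs, and 1 in ApoE-/- chow 1. In high-fat 1 the 9 genes held 64 junction reads, or 184 per 100000, against 62.0 to 89.2 in the other libraries, and 24 of the 64 were from genes other than Abca1. Of the 18 circRNAs, 14 had junction reads in exactly 1 library and none in all 6. The same share over all 20532 listed intervals was not counted, so this describes the 18 and sets them apart from no other intervals.

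TMM-scaled interval levels of Scarb1, a receptor for high-density lipoprotein, and Soat1, which esterifies cholesterol, were high and low in the same libraries (Pearson's r = 0.889 of log2(CPM + 1) over 6 libraries, a description of libraries that share depth and tissue makeup).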
